A study of Mus musculus with 12 samples.

Results

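*Irf7*, *Irf9*, *Stat2*, *Irf1*, *Ifih1*, *Ddx58*, *Dhx58*, *Usp18* and *Ifnar1*, genes of the type I interferon response, were followed in whole adrenals of mice whose β-catenin is stabilized in the zona glomerulosa (zG), the outer zone of the adrenal cortex. They were taken by gene symbol from the deposited table and are 9 of its 39017 genes. All 9 passed the filter on low counts, as did 14953 genes in all. The study had 6 control (Ctrl) mice of genotype ASCre/+, whose library titles read Wt_Ctr, and 6 βCat-GOF mice, bigenic for ASCre/+ and Ctnnb1fl(ex3)/+. Both groups thus carry Cre driven by *Cyp11b2* (AS), a gene of aldosterone-producing zG cells, and in the βCat-GOF group this Cre removes exon 3 of 1 *Ctnnb1* allele. All 12 mice were females of 10 to 11 weeks on a mixed sv129-C57Bl/6 background, and RNA came from whole adrenals freed of fat, with 1 library per mouse. Mice are numbered here in the order of their listing within a group.

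Type I interferons are secreted by infected or stimulated cells and bind a receptor made of IFNAR1 and IFNAR2. The kinases bound to the receptor phosphorylate STAT proteins such as STAT2, which joins IRF9 to switch on genes that carry an interferon-stimulated response element, among them *Irf7*, the RNA sensors and *Usp18*, which shuts the receptor off again. The sensors RIG-I (*Ddx58*), MDA5 (*Ifih1*) and LGP2 (*Dhx58*) recognize double-stranded or otherwise foreign RNA in the cytoplasm and, through the adaptor MAVS, induce interferon anew.

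To show where such elements lie near these genes, the 250 bases before the start of transcription and the first 50 from it on were searched on both strands for 3 letter patterns. RefSeq windows on GRCm38.p6 were at hand for 7 of the 9 genes (9 windows of 300 bases), and not for *Dhx58* and *Usp18*. The interferon-stimulated response element (ISRE) was written GAAANNGAAA, the gamma-activated site (GAS, bound by STAT dimers) TTCNNNGAA, and the TCF/LEF site through which β-catenin acts CTTTGAT. ISRE letters were found in *Stat2*, *Ifih1* and *Ddx58* and in 3.44% of all 32851 windows. GAS letters were found in *Irf1* and *Ifnar1* and in 8.3% of all windows. TCF/LEF letters were found in none of the 9 windows and in 3.73% of all windows. Only this spelling of the TCF/LEF site was searched, so the windows may hold the site in another form. The windows of *Irf7* and *Irf9* held none of these patterns, which says only that these letters are not there. In the sequences given here, which are those with a match, the matching bases are in capitals and the strand is that of the gene. For *Stat2* and *Irf1* the 250 bases before the start are shown, chr10:128270248-128270497 and chr11:53769764-53770013 on the plus strand, and the match begins 222 and 90 bases before it.
*Stat2*: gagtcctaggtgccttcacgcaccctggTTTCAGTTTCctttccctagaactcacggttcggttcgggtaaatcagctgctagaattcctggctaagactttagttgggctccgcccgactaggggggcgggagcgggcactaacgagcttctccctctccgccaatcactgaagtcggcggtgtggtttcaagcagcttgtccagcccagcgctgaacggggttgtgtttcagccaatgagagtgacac
*Irf1*: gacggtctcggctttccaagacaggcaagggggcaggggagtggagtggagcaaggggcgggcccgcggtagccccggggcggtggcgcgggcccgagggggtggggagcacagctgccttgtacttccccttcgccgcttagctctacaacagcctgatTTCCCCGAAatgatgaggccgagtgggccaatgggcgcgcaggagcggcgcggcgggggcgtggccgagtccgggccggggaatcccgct
For the other 3 the bases around the match are shown, which are chr2:62646206-62646233 on the minus strand for *Ifih1*, chr4:40239804-40239833 on the minus strand for *Ddx58* and chr16:91485200-91485229 on the plus strand for *Ifnar1*.
*Ifih1*: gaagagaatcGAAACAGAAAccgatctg
*Ddx58*: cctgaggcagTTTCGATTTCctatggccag
*Ifnar1*: ggcgggggcgTTCACGGAAggggcggggcg

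Between 14090378 and 25625494 reads per Ctrl mouse and between 13484675 and 24951480 per βCat-GOF mouse were counted on genes, so that 3 counts correspond to 0.117 to 0.222 CPM (counts of a gene scaled to the same total in each library). *Nkd1*, a target of β-catenin, was higher in all 6 βCat-GOF mice than in any Ctrl mouse (log2 fold change 1.81, adjusted p = 0.00193 in edgeR), while *Ctnnb1* itself had a log2 fold change of -0.02 (adjusted p = 0.907). A deleted exon cannot be read from counts summed over a gene. The labels of all 6 Ctrl mice begin with 1367, those of 5 βCat-GOF mice with 1369 and that of βCat-GOF mouse 5 with 1387, so families or batches along these numbers cannot be told apart from genotype. The labels of Ctrl mice 1 and 2, of Ctrl mice 3 and 4 and of βCat-GOF mice 1 and 2 share a stem, and all 12 libraries were counted as separate mice. Ctrl mouse 4 stood apart from the other Ctrl mice in these genes, so the test of each of the 9 genes and the counts of each list past the threshold are given with and without it. It was singled out from the values of these same genes, being the lowest Ctrl mouse in 7 of the 9. In those genes a larger fall without it follows from this choice and is no separate evidence. In whole-gland RNA, fewer cells of a type and less RNA per cell cannot be told apart.

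Of the 9 genes, *Irf7*, *Irf9*, *Ifih1*, *Ddx58* and *Usp18* were lower in βCat-GOF adrenals at an adjusted p under 0.05 (edgeR's quasi-likelihood test), with log2 fold changes between -1.11 and -0.41. These are 5 of 9, where 1.52% of the 14953 genes tested were lower by the same rule. The number was 6 without Ctrl mouse 4, 3 without Ctrl mouse 1, 2, 3, 5 or 6 or βCat-GOF mouse 2, 4 or 5, and 2 without βCat-GOF mouse 6. *Stat2*, *Irf1*, *Dhx58* and *Ifnar1* did not pass, and none of the 9 genes was higher at this threshold or at an unadjusted p under 0.05, where 2.16% of the genes tested were higher at the adjusted and 9.73% at the unadjusted threshold. At an unadjusted p under 0.05, 6 of the 9 were lower, against 10.7% of the genes tested. By DESeq2, 6 of the 9 were lower and none was higher, with 3.32% of 16901 genes lower. On simulated counts DESeq2 made 44 false calls and edgeR 12. The median log2 fold change was -0.41 over the 9 genes and 0.000105 over all genes tested. *Irf7* and *Usp18* were also the 2 that passed the study's cut-offs (fold change above 1.4, adjusted p under 0.05 and base mean above 100), which 0.869% of the genes tested passed in the lower direction. In the same 2 genes every βCat-GOF mouse lay below every Ctrl mouse, as in 1.16% of the genes tested.

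*Irf7* (ENSMUSG00000025498, chr7:141262706-141266481, minus strand) encodes the transcription factor that amplifies the interferon response. Its normalized count, the count divided by the size factor of the library, had a lowest value of 540, a median of 704 and a highest value of 896 in Ctrl adrenals, and of 340, 462 and 539 in βCat-GOF adrenals. The groups did not overlap, although Ctrl mouse 4, the lowest Ctrl mouse (539.9), and βCat-GOF mouse 3 (538.6) nearly met. Ctrl adrenals had a mean of 710.4 ± 122.9 and βCat-GOF adrenals one of 448.5 ± 76.4 (SD, n = 6 mice per group). In edgeR the log2 fold change was -0.67 ± 0.14 (SE), with a 95% confidence interval of -0.96 to -0.38 and an adjusted p of 0.0152. The call held when any 1 mouse was left out, with adjusted p between 0.0108 and 0.0368, and without Ctrl mouse 4 the change was -0.74 (adjusted p = 0.0108, edgeR).

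*Irf9* (ENSMUSG00000002325, chr14:55603571-55610030, plus strand) encodes the DNA-binding subunit of the complex formed with STAT2. Its normalized count ranged from 904.4 through a median of 1273 to 1482 in Ctrl and from 757.8 through 899.2 to 1063 in βCat-GOF adrenals. The groups overlapped only through Ctrl mouse 4, at 904.4, since the other 5 Ctrl mice, from 1173 up, lay above all βCat-GOF mice. For *Irf9*, edgeR gave a log2 fold change of -0.47 ± 0.11 (SE) and an adjusted p of 0.0367. It was -0.55 (adjusted p = 0.0108) without Ctrl mouse 4, and the call was lost in 9 of 12 fits with 1 mouse left out (adjusted p up to 0.0804), those without Ctrl mouse 1, 2, 3, 5 or 6 or without βCat-GOF mouse 2, 4, 5 or 6.

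*Stat2* (ENSMUSG00000040033, chr10:128270559-128292849, plus strand), the partner of IRF9, had a lowest, median and highest normalized count of 1159, 1640 and 1944 in Ctrl and of 1139, 1227 and 1310 in βCat-GOF adrenals. Ctrl mouse 4 was again the lowest Ctrl mouse and lay below 5 of the 6 βCat-GOF mice, while Ctrl mice 1, 2, 3, 5 and 6 lay above all of them. The βCat-GOF mice were close together, with an SD of 57 around 1231, against an SD of 295 around 1586 in Ctrl mice. With a log2 fold change of -0.37 ± 0.11 (SE) and a 95% confidence interval of -0.61 to -0.13, *Stat2* missed the threshold in edgeR (adjusted p = 0.0871). DESeq2 gave an adjusted p of 0.0463, and edgeR without Ctrl mouse 4 gave -0.45 with an adjusted p of 0.0302. That was the 1 fit of 12 with 1 mouse left out in which *Stat2* passed (adjusted p up to 0.167 in edgeR). Of the 6 other settings it passed in 2, DESeq2 without and with its prior.

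*Irf1* (ENSMUSG00000018899, chr11:53770014-53778374, plus strand) encodes a transcription factor best known as a target of interferon gamma. Its normalized count had a lowest value of 751, a median of 793.9 and a highest value of 870.9 in Ctrl adrenals. In βCat-GOF adrenals the same values were 527.9, 625.2 and 964.7. The βCat-GOF mice lay on both sides of the Ctrl mice, with 4 below every Ctrl mouse, mouse 2 within their range and mouse 1 above it. Its log2 fold change of -0.24 had a 95% confidence interval of -0.54 to 0.06 and an adjusted p of 0.357 in edgeR. It was -0.26 (adjusted p = 0.421) without Ctrl mouse 4 and -0.37 (adjusted p = 0.0557) without βCat-GOF mouse 1.

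**Figure D1:**
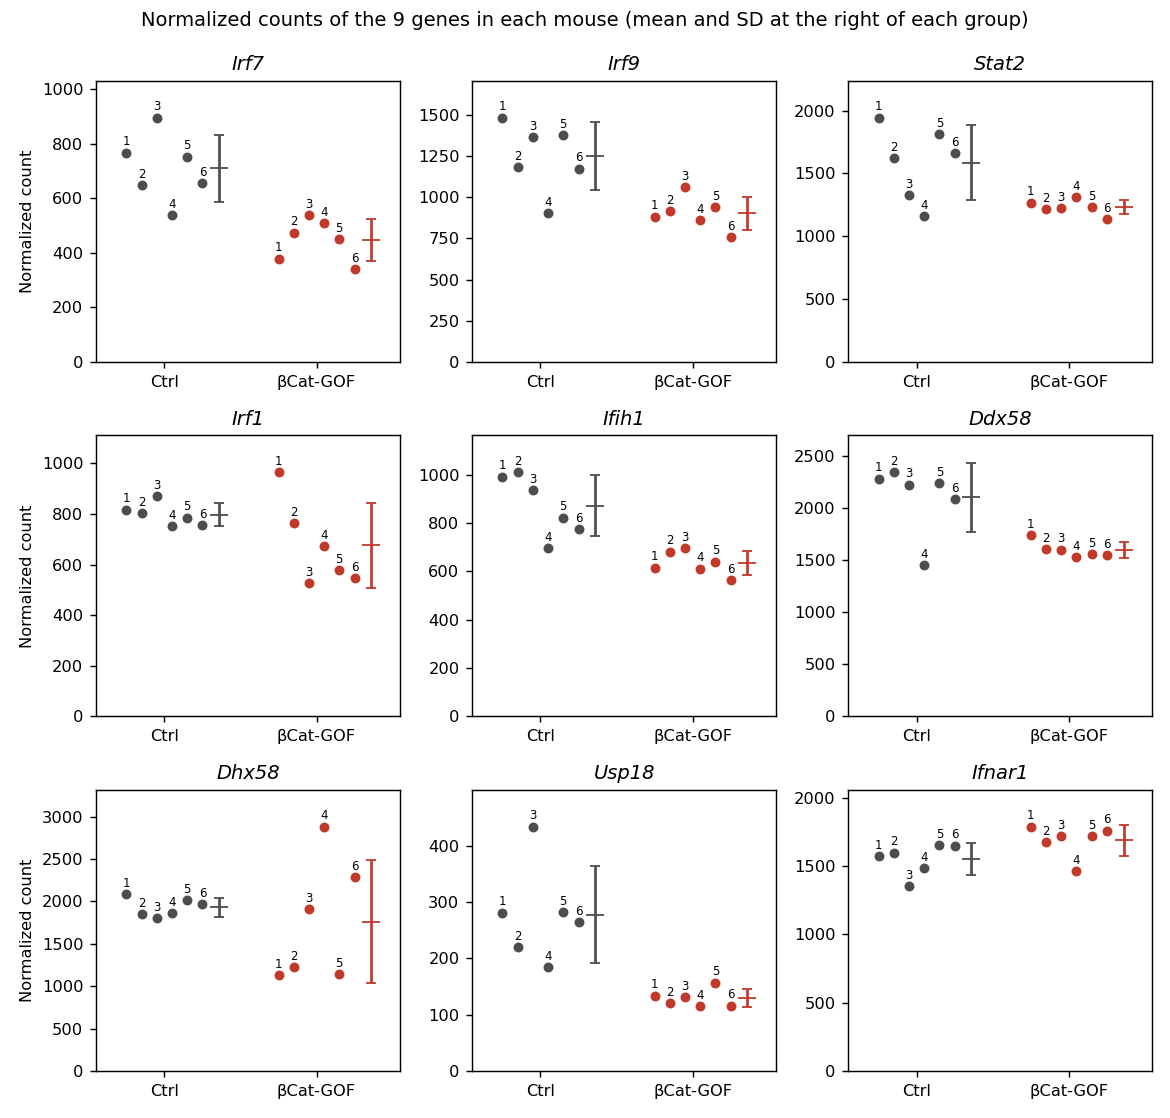
Normalized counts (vertical axis, from 0) of the 9 genes in each of the 6 Ctrl (grey) and 6 βCat-GOF (red) mice, with mouse numbers above the points and the group mean and SD as a bar at the right. *Irf7* and *Usp18* show no overlap between groups, Ctrl mouse 4 is the lowest Ctrl mouse in 7 of the 9 panels, and *Dhx58* spreads from 1128 to 2883 in βCat-GOF mice.

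Of the RNA sensors, *Ifih1* (ENSMUSG00000026896, chr2:62595798-62646255, minus strand), which encodes the sensor of long double-stranded RNA MDA5, had a lowest, median and highest normalized count of 695.3, 879.7 and 1011 in Ctrl and of 564.9, 628.4 and 697.0 in βCat-GOF adrenals. A single pair of values overlapped, Ctrl mouse 4 at 695.3 and βCat-GOF mouse 3 at 697.0. *Ifih1* fell, with a log2 fold change of -0.47 ± 0.10 (SE) and an adjusted p of 0.0221 in edgeR. The change was -0.52 without Ctrl mouse 4 (adjusted p = 0.0122) and, with the call lost, -0.44 without βCat-GOF mouse 6 (adjusted p = 0.0525).

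*Ddx58* (ENSMUSG00000040296, chr4:40203773-40239828, minus strand), which encodes RIG-I, had a lowest value of 1453, a median of 2234 and a highest value of 2348 in Ctrl, and of 1531, 1582 and 1742 in βCat-GOF adrenals. The 5 Ctrl mice other than number 4 lay between 2092.5 and 2348, above all βCat-GOF mice, and Ctrl mouse 4 was the lowest of all 12. With a log2 fold change of -0.41 ± 0.10 (SE), *Ddx58* was just past the threshold in edgeR (adjusted p = 0.0483). Without Ctrl mouse 4 it was -0.49 ± 0.07 (adjusted p = 0.00406). The call was kept without Ctrl mouse 4 or βCat-GOF mouse 1 and lost without any 1 of the other 10 mice, with adjusted p up to 0.0978, and also without the filter on low counts (adjusted p = 0.0698).

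*Dhx58* (ENSMUSG00000017830, chr11:100694884-100704271, minus strand) encodes LGP2, which lacks the signaling domain of the other sensors and modulates them. It had the highest level of the 9 genes per length of exon, counted over all annotated transcripts, in both groups. It had 589.6 ± 33.3 normalized counts per kilobase in Ctrl and 538.8 ± 221.6 in βCat-GOF adrenals (SD, n = 6). In Ctrl adrenals its normalized count was even, from 1800 through a median of 1915 to 2083, which is a coefficient of variation of 5.6%. In βCat-GOF adrenals it ran from 1128 through 1565 to 2883, a coefficient of variation of 41%. Mice 1, 2 and 5 lay below every Ctrl mouse, mouse 3 within the Ctrl range and mice 4 and 6 above it. Its log2 fold change was -0.14 with a wide 95% confidence interval of -0.59 to 0.30 (adjusted p = 0.744 in edgeR). It was -0.15 without Ctrl mouse 4 (adjusted p = 0.778), and with 1 mouse left out it ran from -0.34 without βCat-GOF mouse 4 (adjusted p = 0.284) to -0.03 without βCat-GOF mouse 1 (adjusted p = 0.939). The order of the βCat-GOF mice in *Dhx58* was not that of the other sensors, since mouse 6, lowest in *Ifih1* with 564.9, had 2291 normalized counts of *Dhx58*. Of the exon bases of *Dhx58*, 4.3% are shared with *Dhx58os* on the opposite strand, and whether the counting used the strand is not given in the sources used here.

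*Usp18* (ENSMUSG00000030107, chr6:121245906-121270917, plus strand) encodes the protease that removes ISG15 from proteins and blocks signaling at IFNAR2. It had the largest fall of the 9 genes. Its normalized count had a lowest value of 183.8, a median of 272.5 and a highest value of 433.6 in Ctrl adrenals, and of 115.5, 126.2 and 156.7 in βCat-GOF adrenals. All βCat-GOF mice lay below all Ctrl mice, and Ctrl mice 3 and 4, whose labels share a stem, were the highest and the lowest of the Ctrl group. Means were 277.3 ± 85.6 and 129.1 ± 15.6 (SD, n = 6 mice per group), and edgeR put the log2 fold change at -1.11 ± 0.18 (SE), with a 95% confidence interval of -1.50 to -0.72 and an adjusted p of 0.00487. The call held with any 1 mouse left out, with adjusted p from 0.00364 to 0.0136, and the change was -1.20 without Ctrl mouse 4 (adjusted p = 0.00364).

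*Ifnar1* (ENSMUSG00000022967, chr16:91485238-91507441, plus strand), the receptor chain, was the 1 gene of the 9 with a fold change above 0. Its normalized count had a lowest value of 1353, a median of 1585 and a highest value of 1656 in Ctrl, and of 1464.5, 1718 and 1789 in βCat-GOF adrenals. Except for mouse 4, the βCat-GOF mice lay above all Ctrl mice. In edgeR the log2 fold change of *Ifnar1* was 0.11 (95% confidence interval -0.05 to 0.27), with an unadjusted p of 0.154 and an adjusted p of 0.421. Without Ctrl mouse 4 it was 0.10 (adjusted p = 0.571).

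Per kilobase of exon, the order of mean levels in Ctrl adrenals was *Dhx58*, *Ddx58* (299.0 ± 47.1 normalized counts per kilobase), *Stat2* (267.7 ± 49.8), *Ifnar1* (261.3 ± 19.5), *Irf9* (231.5 ± 38.2), *Irf1* (200.4 ± 11.2), *Irf7* (188.1 ± 32.6), *Ifih1* (106.8 ± 15.6) and *Usp18* (99.4 ± 30.7, SD, n = 6). From *Ddx58* to *Irf7* neighbours in this order differed by less than the larger of their SDs, as did *Ifih1* and *Usp18*, whereas the ranges of *Dhx58* and *Ddx58* did not overlap (550.1 to 636.7 against 206.1 to 333.1), nor did those of *Irf7* and *Ifih1* (143.0 to 237.3 against 85.2 to 123.8). In βCat-GOF adrenals *Ifnar1*, at 284.1 ± 19.6 per kilobase, came before *Ddx58* at 226.8 ± 10.9 and *Stat2* at 207.8 ± 9.6, and *Usp18* was again last at 46.2 ± 5.6. The order depends on this length, which takes every exon base of all annotated transcripts, and other lengths were not tried. Before division by length, *Ddx58* and *Dhx58* had means of 2107.9 and 1929.3 in Ctrl and of 1598.9 and 1763.0 in βCat-GOF adrenals.

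The spread between mice was shared by several of the 9 genes. Ctrl mouse 4 was the lowest Ctrl mouse in *Stat2*, *Irf1*, *Irf7*, *Irf9*, *Ifih1*, *Ddx58* and *Usp18*, and its log2 CPM lay on average 0.31 below the Ctrl mean over the 9 genes. The other 5 Ctrl mice had averages between -0.03 and 0.13 against the Ctrl mean. The 6 βCat-GOF mice had averages between -0.53 and -0.35, so Ctrl mouse 4, at -0.31, lay nearer to them than to the Ctrl mice. Over the 5 genes past the threshold, the average was -0.43 in Ctrl mouse 4 and from -0.82 to -0.49 in βCat-GOF mice. βCat-GOF mouse 6 was the lowest of its group in *Stat2*, *Irf7*, *Irf9* and *Ifih1*.

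**Figure D2:**
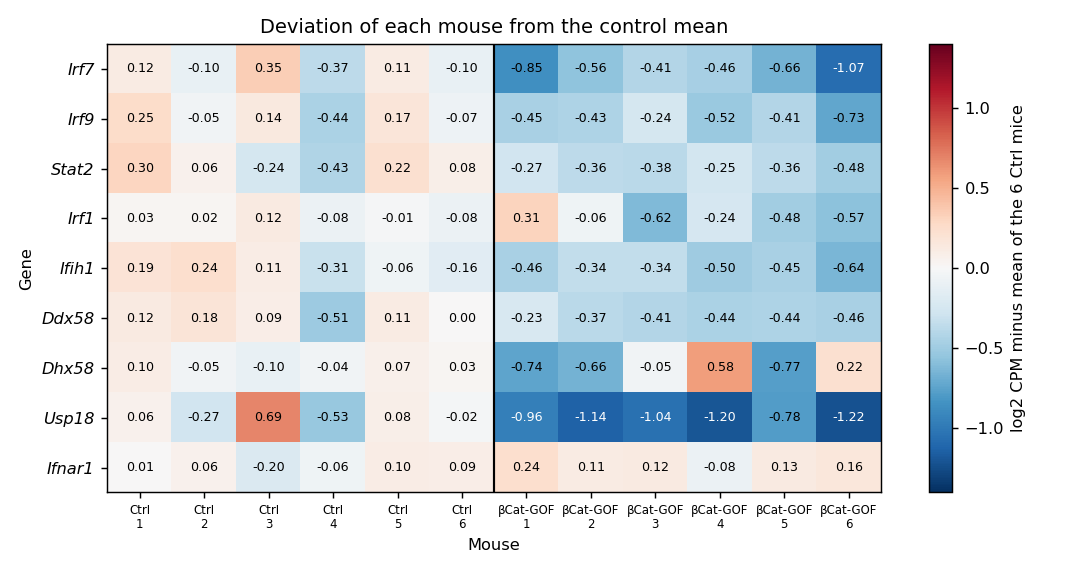
Difference of log2 CPM of each mouse (columns) from the mean of the 6 Ctrl mice, for the 9 genes (rows), with blue below and red above the Ctrl mean. The column of Ctrl mouse 4 is below the Ctrl mean in all 9 genes, the βCat-GOF columns are blue in *Irf7*, *Irf9*, *Stat2*, *Ifih1*, *Ddx58* and *Usp18*, and *Dhx58* runs from -0.77 to 0.58 in βCat-GOF mice.

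None of 7 genes that act directly beside these 9 passed the threshold, in edgeR or in DESeq2, and 0 had an unadjusted p under 0.05 in edgeR. Of these partners, 3 were lower and 4 higher, with a median log2 fold change of 0.04, and adjusted p between 0.414 and 0.909 (edgeR). Without Ctrl mouse 4, 0 passed and the median was 0.05. For the second receptor chain *Ifnar2* and the receptor kinases *Jak1* and *Tyk2*, the log2 fold changes were -0.03, 0.04 and -0.05. They were -0.03 for the adaptor *Mavs*, 0.08 for *Trim25*, a ubiquitin ligase that activates RIG-I, 0.12 for the kinase *Tbk1* and 0.13 for *Irf3*, the factor that TBK1 phosphorylates.

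The wider pathway was described with 6 lists of 74 genes, of which 62 were tested. At an adjusted p under 0.05 in edgeR, 1.52% of all genes tested were lower and 2.16% higher in βCat-GOF adrenals. Of the 62, 6 were lower and 1 was higher, and the median log2 fold change was -0.16. Without Ctrl mouse 4 these were 7, 1 and -0.17, with *Zbp1*, a sensor of left-handed nucleic acid helices, as the additional gene. The 14 receptor and JAK-STAT genes tested held none past the threshold (median -0.02, smallest adjusted p 0.144 in edgeR), and DESeq2 called 0 of them. At an unadjusted p under 0.05 in edgeR there were 3, *Socs3* lower and *Stat3* and *Ptpn11* higher. At that threshold 10.7% of all genes tested were lower and 9.73% higher. The 6 other interferon regulatory factors held none past the adjusted threshold either (median -0.04, smallest adjusted p 0.261, 0 at an unadjusted p under 0.05 and 0 by DESeq2). Of the 15 genes tested around the RIG-I-like receptors, 8 were lower and 7 higher, with a median of -0.02. *Rnf135*, which encodes Riplet, a ubiquitin ligase required by RIG-I, fell from 378.2 ± 52.6 to 235.4 ± 15.9 normalized counts, with no overlap between the groups (log2 fold change -0.69 ± 0.11, SE; adjusted p = 0.00413 in edgeR). *Tnfaip3*, which encodes the deubiquitinase A20, an inhibitor of this and of NF-κB signaling, rose from 118.2 ± 18.5 to 193.2 ± 35.5 with all βCat-GOF mice above all Ctrl mice (0.70 ± 0.16, adjusted p = 0.0264). The rise of *Tnfaip3* was lost in the fits without Ctrl mouse 5, Ctrl mouse 6 or βCat-GOF mouse 6.

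Of the 23 other nucleic acid sensors and effectors, 21 had a log2 fold change below 0, where 49.97% of all genes tested did, and the median was -0.52. Of these, 4 passed the threshold, all lower, and 17 of the 23 were lower at an unadjusted p under 0.05, as were 10.7% of all genes tested. DESeq2 called 7 of the 23, all lower. *Oasl2*, of the 2'-5'-oligoadenylate synthetase family that is activated by double-stranded RNA, fell from 801.7 ± 179.6 to 441.0 ± 63.4 normalized counts (SD, n = 6; log2 fold change -0.87, adjusted p = 0.00555 from edgeR). *Oas1g* fell from 43.9 ± 5.6 to 22.5 ± 1.7 (-0.97, adjusted p = 0.00675) and *Oas1a* from 200.2 ± 61.9 to 109.3 ± 30.3 (-0.88, adjusted p = 0.0478). The call of *Oas1a* was just past the threshold. It was kept without Ctrl mouse 4, and its calls without other mice are not reported here. *Oas1g* and *Oas1a* are near-identical copies of each other in part of their transcripts, so how reads were split between them is uncertain. *Tlr3*, the endosomal receptor for double-stranded RNA, fell from 419.4 ± 40.2 to 278.0 ± 48.3, with no overlap (-0.60, adjusted p = 0.0215). Of the exon bases of *Tlr3*, 7.3% are shared with *Gm45542* on the opposite strand. The 4 genes of ISG15 conjugation were all lower, with a median of -0.38. Of these, *Isg15*, the ubiquitin-like protein that USP18 removes, passed, falling from 261.8 ± 109.9 to 116.9 ± 14.0 (-1.17, adjusted p = 0.0103), with 1 near-identical copy (*AC151275.1*) in the annotation.

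**Figure D3:**
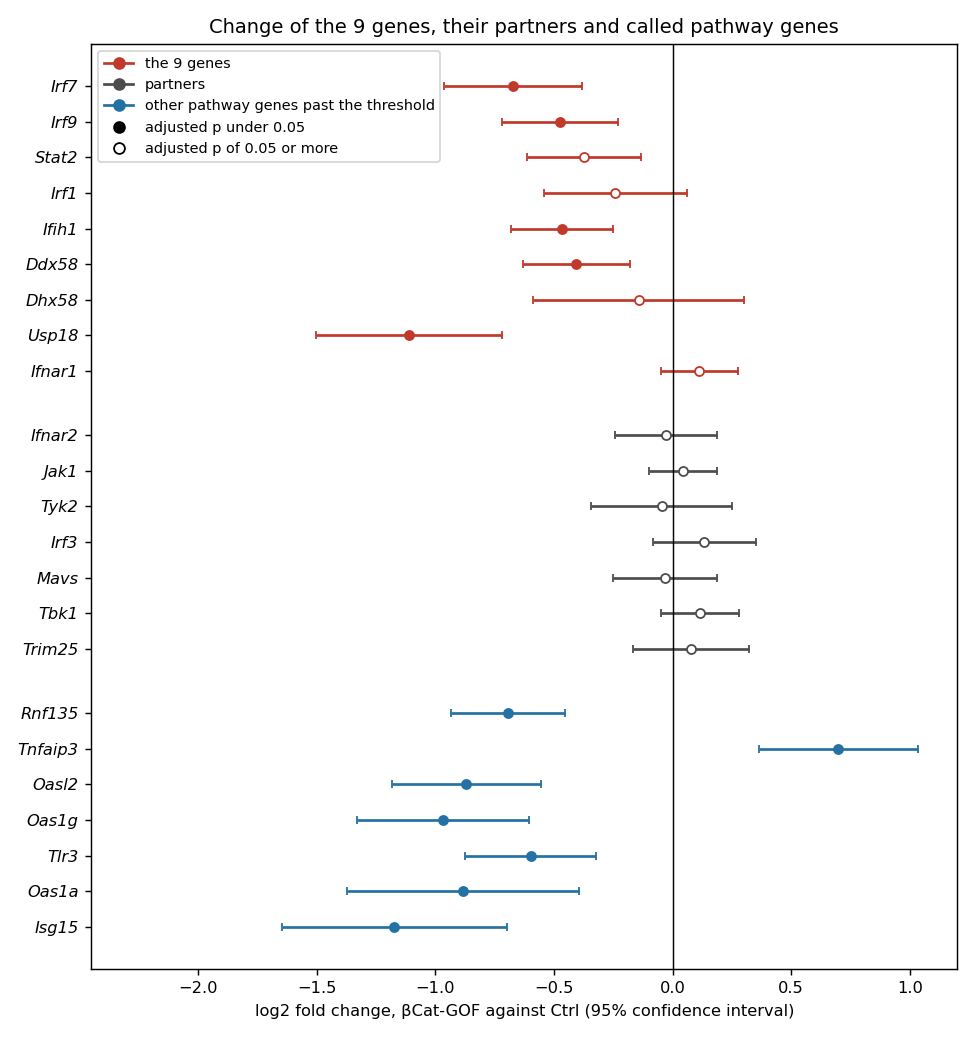
Log2 fold changes of βCat-GOF against Ctrl adrenals (horizontal axis) with 95% confidence intervals for the 9 genes (red), 7 partners (grey) and the 7 further pathway genes past the threshold (blue); filled points have an adjusted p under 0.05. *Usp18*, at -1.11, is farthest from 0 among the 9 genes, the partners' intervals all include 0, and *Tnfaip3* alone is filled on the right.

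None of the 11 interferon genes listed passed the filter on low counts. *Ifna1*, *Ifna2*, *Ifna4*, *Ifna5*, *Ifna12* and *Ifne* had 0 counts in all 12 mice, which at 3 counts allows up to 0.117 to 0.222 CPM per library for counting error alone. *Ifnb1* had 1 count in all, and *Ifng* had 6. The list held 72 counts over the 6 Ctrl and 54 over the 6 βCat-GOF libraries, of which *Ifnl3* and *Ifnl2* held 73 and 35. A difference in these transcripts was not detectable at these counts. Only unique alignments were counted, and near-identical copies of the interferon genes were not searched for. Reads shared with such copies would be missing at any depth, so 0 counts need not mean absence.

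Markers of other cells in the gland are given beside these results. Of 8 macrophage and myeloid markers, 6 were lower and 2 higher, and *Adgre1* (359.0 ± 76.9 to 210.0 ± 60.0 normalized counts, log2 fold change -0.78, adjusted p = 0.0459 from edgeR) and *Mrc1* (718.9 ± 91.8 to 545.2 ± 74.1, -0.41, adjusted p = 0.0495) passed. The median log2 fold change of the 8 was -0.36, and -0.27 without Ctrl mouse 4. At an unadjusted p under 0.05 in edgeR there were 5 of the 8, *Cd14* higher and the others lower. At that threshold 10.7% of all genes tested were lower and 9.73% higher. The summed normalized count of the 8 ranged from 6938 to 13355 in Ctrl and from 5328 to 9328 in βCat-GOF adrenals, with medians of 8058 and 8679. *Lyz2* alone made up 62.5% of this sum over all mice, and the other 7 markers summed to between 2746.5 and 4083 in Ctrl (median 3630) and between 2408 and 3690 in βCat-GOF adrenals (median 2951). Ctrl mouse 4, lowest in 7 of the 9 genes, had a sum of 12916, the second highest of the 12, and the highest sum without *Lyz2*. Of 7 T and NK cell markers, 2 were tested and *Cd4* passed (24.2 ± 9.5 to 9.5 ± 2.5, -1.35, adjusted p = 0.033), and the sum ranged from 59.3 to 100.8 in Ctrl and from 23.3 to 61.8 in βCat-GOF adrenals. The 3 markers of plasmacytoid dendritic cells, the cells that make most interferon alpha in blood, summed to between 27.9 and 53.4 in Ctrl and between 25.3 and 78.0 in βCat-GOF adrenals, and none of the 2 tested passed (smallest adjusted p 0.498, 0 by DESeq2). The 6 endothelial markers were all lower with none past the threshold (11762 to 14973 against 10430 to 15192, 2 at an unadjusted p under 0.05). None of the B cell, adipocyte, medulla or capsule markers passed, and DESeq2 called 0 in these and the endothelial list. Of 4 neutrophil markers, *S100a9* was tested and had 8.5 ± 3.1 normalized counts in Ctrl and 15.2 ± 8.0 in the βCat-GOF group (0.80 on the log2 scale, adjusted p = 0.295), *S100a8* and *Retnlg* had 77 and 85 counts over all mice, and *Ly6g* was at 0 in all mice. Of the 4 zG markers, *Agtr1b*, *Vsnl1* and *Dab2* were higher (sum of all 4 17160 to 25669 against 21623 to 43616), as was *Akr1b7* of 4 cortex markers (sum 685707 to 798417 against 492995 to 1207510). The fourth zG marker, *Cyp11b2*, which encodes aldosterone synthase and carries Cre, had 5162 ± 2063 normalized counts in Ctrl and 4544 ± 2824 in the βCat-GOF group (-0.18 on the log2 scale, adjusted p = 0.82). Without Ctrl mouse 4, *Adgre1*, *Mrc1*, *Cd4*, *Dab2* and *Akr1b7* no longer passed, and of all markers *Agtr1b* and *Vsnl1* did. Cortex and medulla markers were abundant in all libraries. The part of these cells in the results on the 9 genes was not tested.

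Among all genes tested, those whose log2 CPM followed the mean of the 9 genes most closely within groups were *Gm14150*, *Lhpp*, *Gm4737*, *Ptgis* and *Bloc1s1*, with Pearson correlations of deviations from the group means between 0.84 and 0.91 over 12 mice. Ctrl mouse 4 weighed on these values. Without it, over 11 mice, the correlation was 0.89 for *Lhpp* and 0.70 for *Ptgis*, but 0.59 for *Gm14150*, 0.59 for *Bloc1s1* and 0.35 for *Gm4737*. *Gm14150* is a processed pseudogene with 11 near-identical matches in the annotation, *Gm4737* has 2, and 55.9% of the exon bases of *Bloc1s1* are shared with *Rdh5*. For *Dhx58*, whose order of mice differed from that of the other sensors, the closest genes were *P3h1* (0.98), *Tmem214* (0.97) and *Fam102a* (0.97), a measure added after its values were seen. None of these 8 genes differed between the groups at the threshold (adjusted p between 0.163 and 0.826, edgeR). All points share the libraries and their depths. The genes were picked as the closest of all genes tested, so their correlations are high by selection and are descriptions only.

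**Figure D4:**
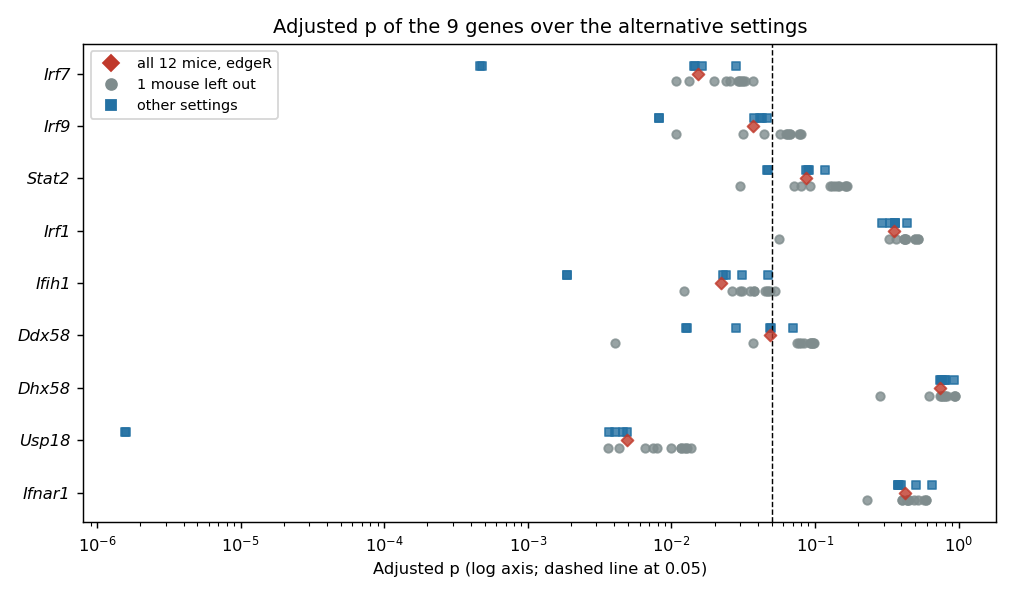
Adjusted p (horizontal log axis, dashed line at 0.05) of the 9 genes with all 12 mice in edgeR (red diamonds), with 1 mouse left out (grey circles) and under the other settings (blue squares). All points of *Irf7* and *Usp18* lie left of the line, those of *Irf9*, *Ddx58*, *Ifih1* and *Stat2* lie on both sides, and those of *Irf1*, *Dhx58* and *Ifnar1* lie right of it.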

How the data were processed

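RNA of whole adrenals from 6 Ctrl and 6 βCat-GOF mice was analysed, 1 library per mouse. Per the labels and the study's methods, the authors trimmed adapters, aligned reads to mm10 with STAR, assigned unique alignments to genes with featureCounts 1.4.4 and tested with DESeq2 1.6.3. The authors deposited the counts of 39017 genes without normalization, and these counts were used for every test. The authors also deposited a signal table, the counts divided by 1 factor per library, which was used only for symbols (966 identifiers have none). In all, 0 columns of per-sample values were left unmapped. The annotation release and strand setting of the counting are not given in the sources used here.

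Genes were tested with edgeR 4.0.16 in R 4.3.3 (TMM, filterByExpr, quasi-likelihood test, two-sided) with Benjamini-Hochberg adjustment over the 14953 genes tested. The standard error is the size of the log2 fold change divided by the square root of F. Normalized counts are counts divided by the median-of-ratios factors of DESeq2 1.42.0, and log2 CPM used a prior count of 2. P-values set the difference between the groups against the spread between these libraries. They do not cover families or batches along the label numbers. Positions, exons and copies (blastn 2.17.0, with 95% identity or more along 10% or more of a gene's longest transcript) came from GENCODE M21 on GRCm38, the assembly of mm10, which places 37607 of the identifiers. None of the 9 genes had such a copy, and at most 4.4% of their exon bases were shared with other genes. On simulated counts, edgeR recovered 84 of 100 genes changed by a fold of 2 and 98 of 100 changed by a fold of 4. There were 12 false calls in this fit of 14841 genes, changed and unchanged together. On the same counts DESeq2 recovered 89 of 100 and 98 of 100, with 44 false calls among 14952 genes. Calls made by DESeq2 alone are therefore less secure than those of edgeR. Smaller changes were not simulated, and of the 9 genes only *Usp18* changed by more than a fold of 2. Recovery at the size of the other changes is therefore not known. Tables and plots were made in Python 3.11.15 with matplotlib 3.10.9.

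The genes, gene lists and tests were chosen with earlier results of these data known. Named were the 9 genes, 7 partners, list genes and markers past the threshold (at most 6 per list by p) and the 5 genes most like the mean of the 9. Other genes, such as those around *Dhx58* and the interferons, were named after their values were seen. Some genes of these lists are not reported here. Alternatives were DESeq2 without and with its prior, its size factors in edgeR, no filter, at least 10 counts in every mouse, the study's 3 cut-offs, libraries that share a label stem summed (9 libraries) and each mouse left out in turn.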

Additional observations from a re-analysis of the deposited data

Results flagged for a closer look

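In the groups of 6 mice, a value was singled out where its gap to the nearest other mouse took up more of the group's range than Dixon's 95% critical value for 6 samples allows. This was applied to 46 groups (23 genes in Ctrl and βCat-GOF mice), and chance gives about 1 such value in 20 groups. Among the 9 genes, *Ddx58* was singled out on both sides, with 1452.7 normalized counts in Ctrl mouse 4 (other Ctrl mice 2092.5 to 2348.0) and 1742.3 in βCat-GOF mouse 1 (others 1531.0 to 1608.7). For *Ifnar1*, βCat-GOF mouse 4 had 1464.5 (others 1676.0 to 1789.5). The same mouse had 1543.6 normalized counts of the adaptor *Mavs* (others 1149.7 to 1287.0). Of the other pathway genes, *Rnf135* had 204.7 in βCat-GOF mouse 2 (others 234.2 to 246.7), *Tlr3* 499.3 in Ctrl mouse 2 (others 389.4 to 415.9), *Oasl2* 316.9 in βCat-GOF mouse 6 (others 447.5 to 492.4) and *Isg15* 476.2 in Ctrl mouse 3 (others 162.8 to 252.0). The cause of these values was not tested.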

How the results depend on the processing

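Of the 9 genes, 5 were lower with all mice in edgeR and 2 by the study's 3 cut-offs, which add a fold change above 1.4. With 1 mouse left out the number lay between 2 and 6. It was 6 without Ctrl mouse 4, 5 without βCat-GOF mouse 1, 4 without βCat-GOF mouse 3, 2 without βCat-GOF mouse 6, and 3 without Ctrl mouse 1, 2, 3, 5 or 6 or βCat-GOF mouse 2, 4 or 5. Each of these fits has fewer mice, and beyond that the cause was not tested. The number was 6 with DESeq2, with or without its prior, 4 without a filter and 5 under the other settings. *Irf7* and *Usp18* passed in all 18 alternatives with a p of their own, *Ifih1* in 17, *Irf9* in 9, *Ddx58* in 7 and *Stat2* in 3. None of the 9 was higher at the threshold under any setting, and no fold change of the 9 reversed. Of the pathway genes, between 5 and 9 were lower under all settings, with 5 to 7 when 1 mouse was left out. The number lower was 6 with all mice in edgeR. It was 5 without Ctrl mouse 1, 3, 5 or 6 or βCat-GOF mouse 2, 5 or 6. Which genes were lost in these fits is not reported here. The number higher lay between 0 and 1 when 1 mouse was left out, with 0 without Ctrl mouse 5, Ctrl mouse 6 or βCat-GOF mouse 6. No paired analysis was possible because the labels give no replicate numbers shared by the groups. Low counts of unique alignments limit the interferon genes, which did not pass the filter and were not tested.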
